A study of Mus musculus with 8 samples.

Results

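The genes described here make up the core machinery of macroautophagy in the mouse together with the receptors that bring cargo to it. They were chosen by gene name and role, by a rule that used no measured value, though earlier results of these data were known. They comprised 5 cargo receptors, 5 members of the ATG8 family, 4 ATG4 proteases, 7 enzymes and scaffolds of the conjugation reactions, 5 subunits of the ULK1 kinase complex, 6 genes of the class III phosphoinositide 3-kinase complexes, 6 genes of lipid supply and phosphoinositide binding, and the transcription factor Tfeb. All 39 of 39 listed genes were found, each on 1 row, among the 24625 rows of the table.

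Wild type mice, given by the labels as 6 to 12 weeks old, were instilled with either Streptococcus pneumoniae (SP), which gives them pneumonia, or its vehicle control of phosphate-buffered saline (PBS), at 2.3 µl per g of body weight through the trachea into the left lung. Lungs were digested 24 h later, and neutrophils were collected with magnetic beads through Ly6G, a surface protein of mouse neutrophils. Total RNA of 4 PBS samples and 4 SP samples was hybridised to 1 Affymetrix Mouse Gene 1.1 ST array each. Sample titles number the replicates within a group but do not say which mouse or day each came from, although the study describes each sample as one from a mouse. The p-values measure the spread between these samples. Both groups were wild type, and the labels name no treatment besides the instillation. The study looked at the purity of the sorted cells in the pneumonia samples, with no such check stated for PBS. It does report a high level of Ly6G mRNA in all samples.

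Macroautophagy encloses part of the cytoplasm in a double membrane, the autophagosome, and delivers it to the lysosome. The ULK1 kinase complex and a lipid kinase complex start the membrane, lipid transfer proteins and a scramblase enlarge it, and a pair of ubiquitin-like reactions attach ATG8 proteins to it. Cargo receptors bind ubiquitin on damaged organelles, aggregates or bacteria on one side and ATG8 proteins on the other, and when the target is a bacterium the process is called xenophagy. In neutrophils the same machinery is known to take part in differentiation, granule release and the handling of ingested microbes. Messenger RNA levels say nothing of autophagic flux, which rests largely on protein modification.

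All levels are log2 values as deposited, which ran from 3.64 to 14.45 over the table, and a difference of 1 is 2-fold. Array medians lay between 6.06 and 6.20 in PBS and between 5.78 and 5.91 in SP, and the correlation across rows between any pair of arrays of the same group was at least r = 0.970, which describes likeness over rows that are not independent. Of the 9 neutrophil markers all but Camp were bright in every array. Camp was 7.07 to 8.36 in PBS and 7.60 to 10.94 in SP. The log2 summed level of the 9 markers was 15.92 to 16.14 in PBS and 15.36 to 16.13 in SP, and 3 of them were lower in SP by limma. Markers of other lung cells were present as well and moved with the groups. The log2 summed level of 6 ciliated epithelial markers was 12.65 to 13.37 in PBS and 9.89 to 10.74 in SP, and all 6 were called lower. All 3 club cell, 6 alveolar type 2, 4 alveolar type 1 and 4 B cell markers, 4 of 5 endothelial and 1 of 4 fibroblast markers were called lower too, whereas 3 of 5 monocyte and macrophage markers were called higher (summed level 10.73 to 11.80 in PBS and 11.82 to 12.63 in SP). Alveolar macrophage markers split, 1 higher and 2 lower of 4, and 1 of 4 T cell and 1 of 4 eosinophil markers were higher. PBS replicate 2 had the highest summed level of the ciliated, club, alveolar type 1, alveolar type 2 and endothelial lists and the lowest of the neutrophil list among the PBS arrays. The 3 Y-linked genes, taken as a measure of background signal, ranged from 4.33 to 4.90 over the arrays, and were higher in SP by 0.12 to 0.19, with 1 of 3 called. The eosinophil marker called higher, Prg2, lay near this background, at 4.20 to 4.41 in PBS and 4.37 to 5.02 in SP.

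In the values as deposited, autophagy genes differed between SP and PBS in both directions in about equal number. Of the 39 genes, 10 were higher and 10 were lower in SP than in PBS (limma, adjusted p of at most 0.05 over all rows), which is 51.3% of them, and 19 were not called. Over all rows 44.1% were called, 21.5% higher and 22.6% lower, and among rows at or above the median level 60.3% were called (24.1% higher and 36.2% lower), so that the autophagy genes, 37 of which lay at or above that level, were called about as often as rows in general. A difference of at least 2-fold was found in 4 genes, 10.3% of the set, against 17.6% of all rows (6.37% higher and 11.3% lower) and 31.9% of rows at or above the median level. These were Optn, which was higher, and Calcoco1, Map1lc3a and Ulk2, which were lower. None of them passed a test against a difference of 1 log2 unit (limma treat), and centred arrays gave 2 higher and 1 lower past 2-fold. Tfeb also passed 2-fold when PBS replicate 3, or PBS replicate 4, or SP replicate 3 was left out, and Ulk2 no longer did when PBS replicate 2 or SP replicate 3 was left out. The arrays of both groups did not overlap in 19 genes, or 48.7%, 8 of them higher and 11 lower, against 49% of all rows (27.2% higher and 21.8% lower). The median difference was -0.14, with 0.10 over all rows, and the median size of a difference was 0.44, with 0.31 over all rows.

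The balance of directions depended on how arrays were scaled. Centring every array on its own median raised the median difference of all rows from 0.10 to 0.38, and the split became 14 higher and 5 lower, whereas a further quantile normalization gave 9 higher and 12 lower. Without PBS replicate 1, and likewise without SP replicate 1, 6 genes rather than 10 were called higher. Of the 20 calls, 11 held in every alternative fit other than limma treat, which tests against 1 log2 unit and is left out of this count. Of these 11, Sqstm1, Optn, Ambra1, Atg5, Atg16l1 and Atg4b were higher, and Calcoco1, Map1lc3a, Ulk2, Pik3r4 and Atg14 were lower. In a sample of sorted cells, fewer cells of a type and less RNA per cell cannot be told apart, and the part that the markers of other lung cells had in any difference given here was not tested.

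**Figure D1:**
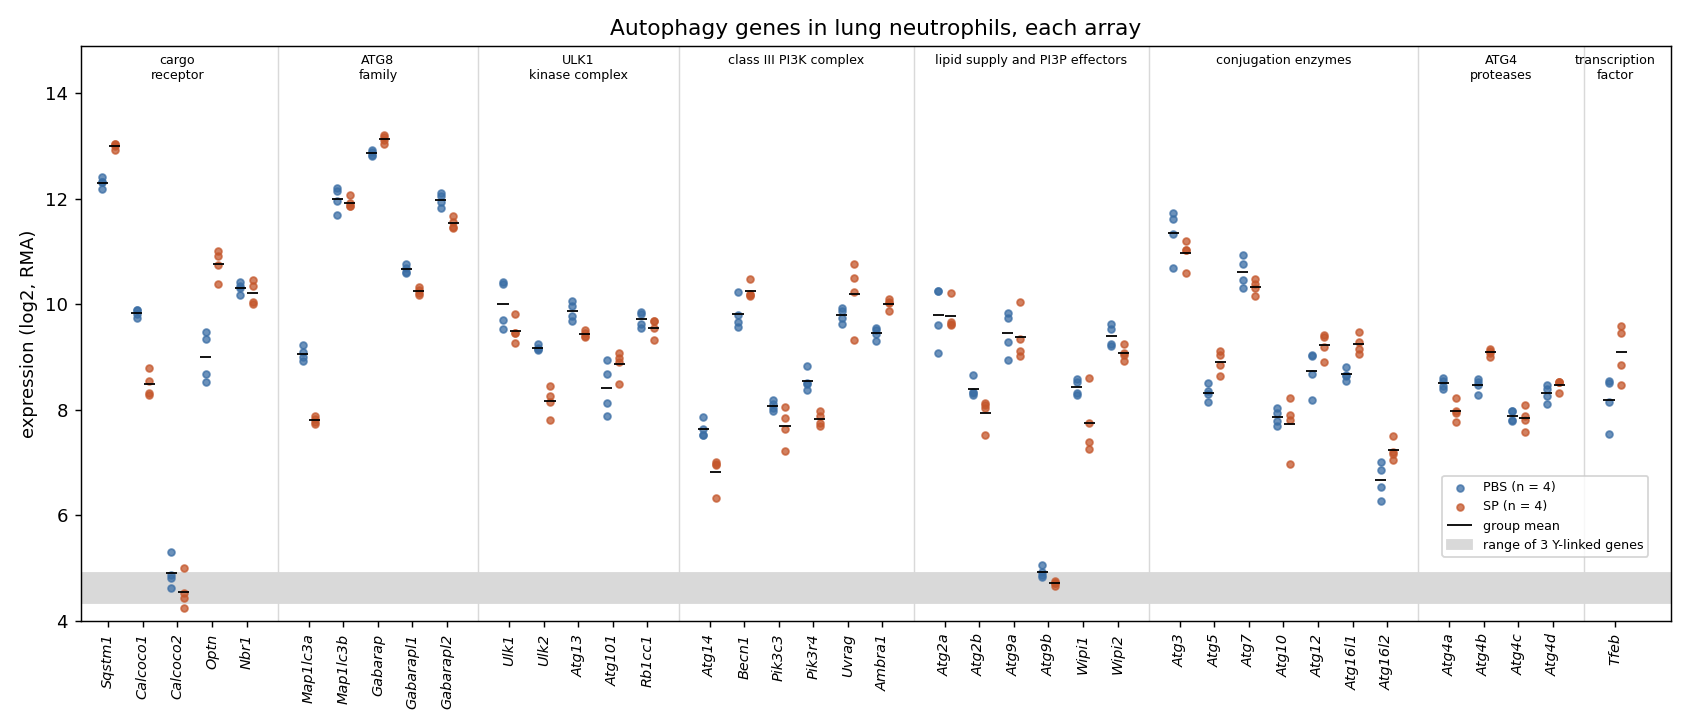
Levels of the autophagy genes in every array. Each point is 1 array (log2 value as deposited), PBS and SP drawn apart, genes ordered by role, with black bars at the group means and a grey band over the range of the 3 Y-linked genes. Optn, Sqstm1 and Ambra1 are seen higher in all 4 SP arrays, and Calcoco1, Map1lc3a and Ulk2 lower in all 4.

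The cargo receptors held both the largest rise and the largest fall of the whole set. Optn (NM_181848) encodes optineurin, a receptor that binds ubiquitin-coated bacteria and damaged mitochondria and is regulated by the kinase TBK1. Its level was 8.69, 8.54, 9.47 and 9.34 in PBS and 10.91, 10.76, 11.01 and 10.38 in SP. Every SP array lay above every PBS array, PBS replicates 1 and 2 being the lowest. The PBS mean was 9.01 ± 0.47 and the SP mean 10.77 ± 0.28 (SD over 4 arrays), a rise of 1.76 with a standard error of 0.24, or 3.38-fold (limma adjusted p = 0.000594). Sqstm1 (NM_001290769), which encodes p62, the receptor that gathers ubiquitinated protein into condensates and is itself degraded by autophagy, was 12.18, 12.33, 12.32 and 12.41 in PBS and 13.05, 13.04, 12.99 and 12.93 in SP. The groups were clear of each other and narrow. The difference was 0.70 (SE 0.07, 1.62-fold, limma adjusted p = 0.000174).

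Calcoco1 (NM_026192), a receptor for selective turnover of the endoplasmic reticulum and Golgi, went the other way. It was 9.89, 9.74, 9.81 and 9.90 in PBS and 8.29, 8.80, 8.33 and 8.54 in SP, so that all SP arrays lay about 1 log2 unit or more below PBS. It fell by 1.35 on the log2 scale (SE 0.12, 2.55-fold, limma adjusted p = 7.24e-05). Nbr1 (NM_001252220), which works together with p62 on aggregates and peroxisomes, was 10.17, 10.36, 10.43 and 10.31 in PBS and 10.35, 10.46, 10.01 and 10.05 in SP. Its groups overlapped, and the difference of -0.10 had a 95% confidence interval of -0.38 to 0.18 (limma adjusted p = 0.496). Calcoco2 (NM_001271018), the mouse form of NDP52, a receptor for bacteria that escape their vacuole, was 4.82, 5.31, 4.63 and 4.87 in PBS and 4.25, 4.99, 4.53 and 4.44 in SP. These values lie at or near the Y-linked background, so the row gives no measure of its expression. Calcoco2 was nevertheless called without SP replicate 2 (-0.50, limma adjusted p = 0.0495) and with replicate numbers as a block (-0.35, limma adjusted p = 0.0455).

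The ATG8 family, the ubiquitin-like proteins that are joined to the lipid phosphatidylethanolamine on the growing membrane, moved unevenly: 3 of 5 members were lower, 1 was higher and 1 was not called. Among rows at or above the median level 36.2% were lower and 24.1% higher. Map1lc3a (NM_025735), 1 of the LC3 genes, was 8.92, 9.22, 9.01 and 9.10 in PBS and 7.77, 7.73, 7.82 and 7.88 in SP. Spread was small within both groups, and they were far apart. It fell by 1.26 on the log2 scale (SE 0.08, 2.40-fold, limma adjusted p = 1.95e-05), the smallest adjusted p of the 39 genes. Map1lc3b (NM_026160), the LC3 form most used as a marker of autophagosomes, was 11.95, 11.69, 12.21 and 12.14 in PBS and 11.86, 12.07, 11.87 and 11.92 in SP. The SP values lay inside the PBS range, and the difference of -0.07 had an interval of -0.35 to 0.21 (limma adjusted p = 0.622). A further quantile normalization called it lower (-0.31, limma adjusted p = 0.029), and centred arrays turned its sign.

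The GABARAP branch of the family, which acts mainly in later steps and in fusion, was split as well. Gabarap (NM_019749) was 12.82, 12.84, 12.90 and 12.93 in PBS and 13.22, 13.11, 13.17 and 13.04 in SP. All SP arrays were higher, by a small amount. The rise was 0.26 (SE 0.07, 1.20-fold, limma adjusted p = 0.0166), and the call was lost without PBS replicate 1 (0.25, limma adjusted p = 0.055), without SP replicate 1 (0.24, limma adjusted p = 0.0505) and after a further quantile normalization (0.12, limma adjusted p = 0.133). Gabarapl1 (NM_020590) was 10.69, 10.77, 10.59 and 10.61 in PBS and 10.18, 10.33, 10.21 and 10.27 in SP, and Gabarapl2 (NM_026693) was 11.95, 11.83, 12.05 and 12.11 in PBS and 11.45, 11.56, 11.68 and 11.48 in SP. Both were lower in every SP array. Gabarapl1 fell by 0.42 (SE 0.07, limma adjusted p = 0.00233) and Gabarapl2 by 0.44 (SE 0.09, limma adjusted p = 0.00494) on the log2 scale, and with centred arrays neither was called (-0.14, limma adjusted p = 0.167, and -0.16, limma adjusted p = 0.26).

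The ATG4 proteases cut ATG8 proteins before their attachment and release them from the membrane afterwards. Atg4b (NM_174874), the main processing enzyme, was 8.59, 8.29, 8.48 and 8.54 in PBS and 9.11, 9.15, 9.08 and 9.005 in SP, higher in every SP array. It rose by 0.62 (SE 0.09, 1.53-fold, limma adjusted p = 0.000692). Atg4a (NM_174875), which prefers GABARAP proteins, was 8.60, 8.55, 8.40 and 8.46 in PBS and 7.97, 7.76, 8.22 and 7.94 in SP. Its groups did not overlap either, in the opposite direction. It fell by 0.53 on the log2 scale (SE 0.11, 1.44-fold, limma adjusted p = 0.00449), a call that was lost with centred arrays (-0.25, limma adjusted p = 0.0931) and with a further quantile normalization (-0.29, limma adjusted p = 0.167). Atg4c (NM_001145967) was 7.98, 7.97, 7.81 and 7.78 in PBS and 8.10, 7.81, 7.58 and 7.89 in SP, with overlapping groups and a difference of -0.04 (interval -0.31 to 0.22). Atg4d (NM_153583) was 8.11, 8.25, 8.48 and 8.40 in PBS and 8.52, 8.53, 8.53 and 8.32 in SP, a difference of 0.16 with an interval of -0.064 to 0.39, and centred arrays called it higher (0.45, limma adjusted p = 0.0146).

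Of the 7 genes of the conjugation reactions, 3 were higher, none was lower and 4 were not called. Of rows at or above the median level, 24.1% were higher and 36.2% lower. The 3 genes called higher belong to or resemble the complex that places ATG8 proteins on the membrane. Atg5 (NM_053069), which is joined to ATG12, was 8.36, 8.29, 8.50 and 8.15 in PBS and 9.12, 9.04, 8.65 and 8.85 in SP. Atg16l1 (NM_001205391), the scaffold that directs the ATG12 and ATG5 conjugate to membranes and is a known Crohn's disease risk gene, was 8.65, 8.56, 8.81 and 8.67 in PBS and 9.28, 9.47, 9.06 and 9.15 in SP. In both genes every SP array was above every PBS array. Atg5 rose by 0.59 (SE 0.12, 1.50-fold, limma adjusted p = 0.00574) and Atg16l1 by 0.57 (SE 0.11, 1.48-fold, limma adjusted p = 0.0032). Atg16l2 (NM_001111111), its paralog, was 6.54, 6.28, 7.02 and 6.86 in PBS and 7.20, 7.16, 7.50 and 7.05 in SP. The highest PBS array and the lowest SP array nearly met. Its rise was 0.56 (SE 0.17, 1.47-fold, limma adjusted p = 0.0312), and it was not called without PBS replicate 1 (0.51, adjusted p = 0.0821), PBS replicate 2 (0.42, adjusted p = 0.0612), SP replicate 1 (0.56, adjusted p = 0.0644), SP replicate 2 (0.58, adjusted p = 0.0532) or SP replicate 3 (0.46, adjusted p = 0.0646), each by limma. The methods' ANOVA did not call it either.

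The other conjugation genes were not called. Atg12 (NM_026217), the ubiquitin-like partner of ATG5, was 8.67, 8.19, 9.05 and 9.03 in PBS and 9.38, 9.41, 9.20 and 8.90 in SP. Only SP replicate 4 reached into the PBS range, and the difference was 0.49 (interval 0.018 to 0.96, limma adjusted p = 0.0825, or 0.77 and 0.013 with centred arrays). Atg7 (NM_001253717), the activating enzyme shared by both reactions, was 10.47, 10.31, 10.94 and 10.76 in PBS and 10.39, 10.47, 10.30 and 10.16 in SP, a difference of -0.28 (limma adjusted p = 0.136) that a further quantile normalization called (-0.43, limma adjusted p = 0.0183). Atg3 (NM_026402), which carries ATG8 proteins to the lipid, was 11.33, 10.69, 11.74 and 11.62 in PBS and 11.03, 11.20, 10.60 and 11.04 in SP. PBS replicate 2 lay far below the other PBS arrays. The difference was -0.38 (limma adjusted p = 0.207), and without PBS replicate 2 it was called lower (-0.60, limma adjusted p = 0.0257). Atg10 (NM_025770), which carries ATG12 to ATG5, was 8.04, 7.93, 7.70 and 7.80 in PBS and 7.81, 8.22, 6.97 and 7.90 in SP. SP replicate 3 was the lowest by far, and the difference of -0.14 had an interval of -0.70 to 0.42.

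In the ULK1 kinase complex, which relays nutrient and stress signals to the first step, 2 of 5 genes were lower and none was higher. That is 40% lower, near the 36.2% of rows at or above the median level, of which 24.1% were higher. Ulk2 (NM_013881), 1 of the kinases, was 9.14, 9.25, 9.15 and 9.18 in PBS and 8.15, 8.45, 7.81 and 8.27 in SP. The PBS arrays were almost equal, and all SP arrays were lower. It fell by 1.01 on the log2 scale (SE 0.13, 2.01-fold, limma adjusted p = 0.000481), just past 2-fold, and without SP replicate 3 by 0.89. Atg13 (NM_145528), the adaptor that bridges the kinase to the rest, was 9.68, 10.06, 9.77 and 9.98 in PBS and 9.45, 9.51, 9.37 and 9.40 in SP. Again the groups did not overlap. Atg13 fell by 0.44 on the log2 scale (SE 0.10, 1.35-fold, limma adjusted p = 0.00829), and with centred arrays the difference was -0.16 (limma adjusted p = 0.231).

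The remaining subunits were not called. Ulk1 (NM_009469), the other kinase, was 9.69, 9.54, 10.42 and 10.39 in PBS and 9.26, 9.45, 9.82 and 9.45 in SP. PBS replicates 1 and 2 lay well below replicates 3 and 4. The difference was -0.51 (SE 0.23, limma adjusted p = 0.0935), and without PBS replicate 2 it was called lower (-0.67, limma adjusted p = 0.04). Rb1cc1 (NM_009826), which encodes the large scaffold FIP200, was 9.64, 9.55, 9.86 and 9.82 in PBS and 9.54, 9.68, 9.68 and 9.33 in SP, a difference of -0.16 with overlapping groups (limma adjusted p = 0.258). Atg101 (NM_026566), which stabilises ATG13, was 8.12, 7.88, 8.95 and 8.68 in PBS and 8.98, 9.08, 8.91 and 8.49 in SP. The groups overlapped, with a difference of 0.45 (limma adjusted p = 0.152) that centred arrays called (0.73, limma adjusted p = 0.03).

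The class III phosphoinositide 3-kinase complexes make the lipid PI3P on membranes that will become autophagosomes or endosomes. Their genes divided, 2 higher, 2 lower and 2 not called of 6. Among rows at or above the median level the shares were 24.1% higher and 36.2% lower. Pik3r4 (NM_001081309), which encodes the scaffold subunit VPS15 common to all forms of the complex, was 8.49, 8.83, 8.50 and 8.37 in PBS and 7.69, 7.88, 7.76 and 7.99 in SP. Atg14 (NM_172599), the subunit that dedicates the complex to autophagy, was 7.86, 7.64, 7.53 and 7.52 in PBS and 7.01, 6.95, 6.32 and 6.97 in SP. Both were lower in every SP array. Pik3r4 fell by 0.72 (SE 0.12, 1.64-fold, limma adjusted p = 0.00148) and Atg14 by 0.82 (SE 0.17, 1.77-fold, limma adjusted p = 0.00467) on the log2 scale. Pik3c3 (NM_181414), the catalytic subunit VPS34, was 7.97, 8.03, 8.18 and 8.12 in PBS and 7.85, 8.06, 7.21 and 7.64 in SP. Its SP arrays were spread over more than 0.8 units and overlapped PBS. The difference was -0.38 (limma adjusted p = 0.0944), and it was called without SP replicate 2 (-0.51, limma adjusted p = 0.0373).

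Ambra1 (NM_001080754), which recruits Beclin 1 and ties the complex to ULK1, was 9.31, 9.55, 9.43 and 9.51 in PBS and 10.04, 10.10, 10.03 and 9.88 in SP. All SP arrays were higher. It rose by 0.56 (SE 0.08, 1.48-fold, limma adjusted p = 0.000998). Becn1 (NM_019584), which encodes Beclin 1 itself, was 9.67, 9.58, 10.23 and 9.80 in PBS and 10.15, 10.18, 10.48 and 10.19 in SP. PBS replicate 3 overlapped the SP range. The rise of 0.43 (SE 0.15, 1.35-fold, limma adjusted p = 0.0468) was near the threshold, and of the fits that left out 1 array only that without PBS replicate 3 kept the call. The methods' ANOVA, array weights, a robust prior with intensity trend and a further quantile normalization did not call it either. Adjusted p was 0.118, 0.109 and 0.0942 without PBS replicates 1, 2 and 4, with differences of 0.38, 0.35 and 0.43, and 0.072, 0.0715, 0.0943 and 0.0662 without SP replicates 1, 2, 3 and 4 (limma), with differences of 0.47, 0.45, 0.35 and 0.45. Uvrag (NM_178635), which takes the place of ATG14 in the endosomal form of the complex, was 9.93, 9.75, 9.88 and 9.63 in PBS and 10.50, 10.77, 9.32 and 10.23 in SP. SP replicates 1, 2 and 4 lay above all PBS arrays and SP replicate 3 below all of them. The difference was 0.41 (SE 0.28, limma adjusted p = 0.248) and, without SP replicate 3, 0.70 (limma adjusted p = 0.00557).

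The genes of lipid supply and of PI3P binding moved least, with 1 of 6 called, against 60.3% of rows at or above the median level. Atg2b (NM_029654), a lipid transfer protein that fills the growing membrane, was 8.27, 8.66, 8.34 and 8.32 in PBS and 8.03, 8.12, 7.52 and 8.09 in SP. The groups did not overlap. It fell by 0.46 on the log2 scale (SE 0.15, limma adjusted p = 0.0399), and the call was lost without PBS replicate 1, 2, 3 or 4 (differences -0.50, -0.37, -0.48 and -0.49, limma adjusted p = 0.0612, 0.0935, 0.0647 and 0.067) and without SP replicate 1 (-0.49, limma adjusted p = 0.0662). With centred arrays and with a further quantile normalization the difference was -0.18 (limma adjusted p = 0.267 and 0.21), and the methods' ANOVA did not call it either (adjusted p = 0.0685 over all rows). Its paralog Atg2a (NM_194348) was 9.60, 9.08, 10.26 and 10.25 in PBS and 9.60, 9.66, 10.21 and 9.63 in SP, with the SP arrays inside the PBS range, SP replicate 3 far above the other SP arrays, and a difference of -0.02 (interval -0.66 to 0.62). Atg9a (NM_001003917), the scramblase whose vesicles seed the membrane, was 9.29, 8.94, 9.83 and 9.74 in PBS and 9.02, 9.12, 10.04 and 9.34 in SP. Its groups overlapped throughout, with a difference of -0.07 and an interval of -0.68 to 0.55. Atg9b (NM_001002897) was 4.86, 5.05, 4.83 and 4.93 in PBS and 4.71, 4.72, 4.76 and 4.66 in SP, all near the Y-linked background. Its groups, though apart, therefore give no measure of expression (limma adjusted p = 0.0503). It was called lower without SP replicate 3 (-0.22, limma adjusted p = 0.0424), with array weights and with a further quantile normalization. The methods' ANOVA and a robust prior with intensity trend called it lower too, and centred arrays turned its sign.

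Wipi2 (NM_178398), which binds PI3P and recruits ATG16L1, was 9.25, 9.21, 9.63 and 9.52 in PBS and 9.07, 9.26, 8.93 and 9.04 in SP. Only SP replicate 2 entered the PBS range. The difference was -0.33 (SE 0.12, limma adjusted p = 0.0521), and it was called without PBS replicate 2 (-0.40, limma adjusted p = 0.038) and without SP replicate 2 (-0.39, limma adjusted p = 0.0418). Wipi1 (NM_145940), another PI3P-binding propeller protein, was 8.28, 8.32, 8.58 and 8.52 in PBS and 7.26, 7.39, 8.60 and 7.76 in SP. SP replicate 3 lay at the top of all arrays and the other SP arrays below every PBS array. The difference was -0.67 (SE 0.27, limma adjusted p = 0.0722), and without SP replicate 3 it was -0.96 (limma adjusted p = 0.00136).

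**Figure D2:**
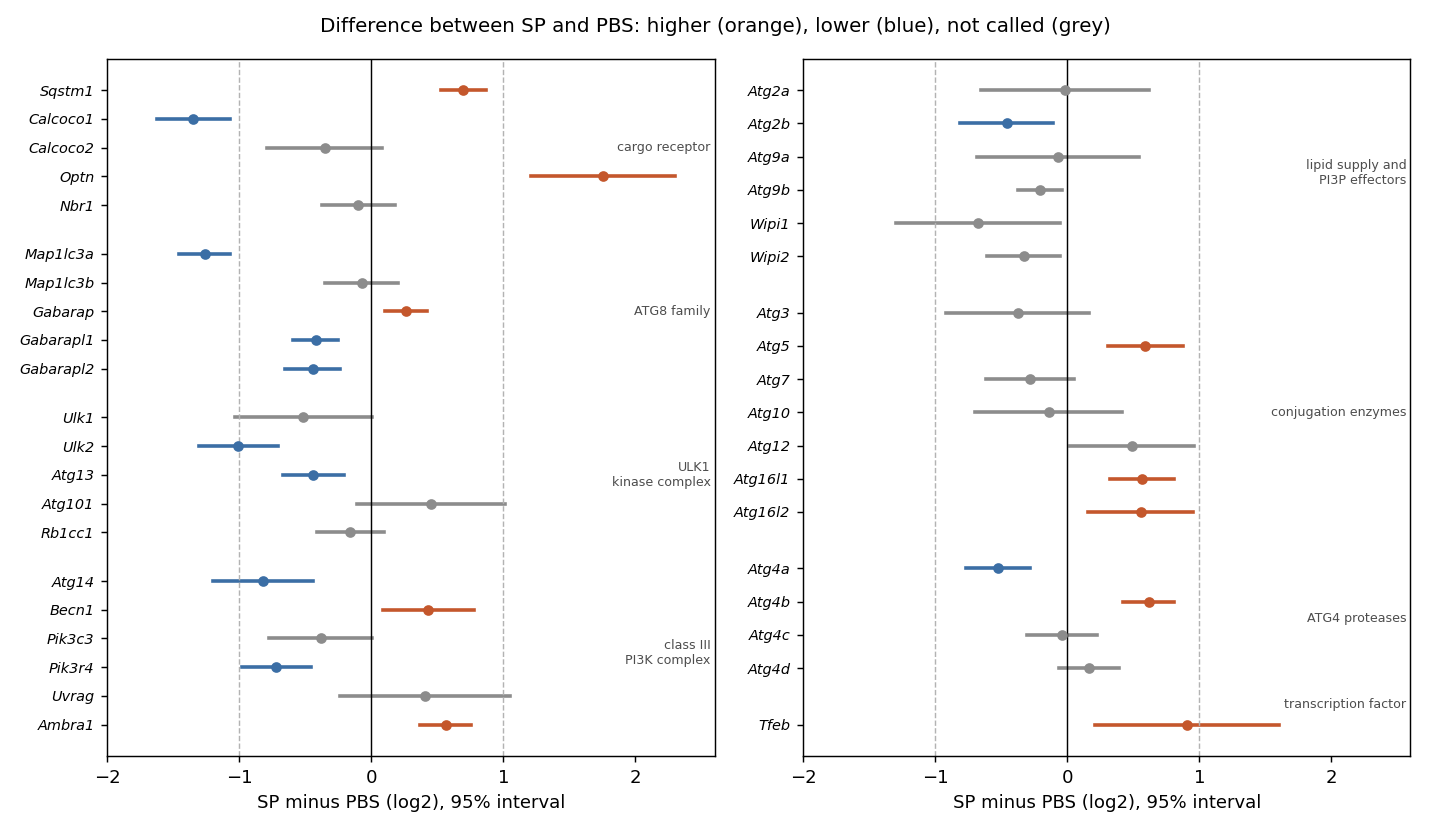
SP minus PBS difference of each autophagy gene (log2) with its 95% confidence interval from limma, by role, orange where called higher, blue where called lower and grey where not called, with dashed lines at 2-fold. Intervals clear of 0 on the right include Optn (1.76), Sqstm1 (0.70) and Atg4b (0.62), and on the left Calcoco1 (-1.35), Map1lc3a (-1.26) and Ulk2 (-1.01). With arrays centred on their median every point would lie 0.28 further to the right.

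Tfeb (NM_001161722) encodes the transcription factor that drives lysosomal and autophagy genes and moves to the nucleus when the kinase mTOR is inactive. Its level was 8.15, 7.55, 8.52 and 8.54 in PBS and 9.46, 9.59, 8.48 and 8.84 in SP. SP replicate 3 fell within the PBS range, and the other SP arrays were above it. The rise was 0.91 (SE 0.30, 1.88-fold, interval 0.21 to 1.60, limma adjusted p = 0.0403), and it was not called without PBS replicate 1 (0.90, limma adjusted p = 0.0875), PBS replicate 2 (0.69, limma adjusted p = 0.0872), SP replicate 1 (0.78, limma adjusted p = 0.101) or SP replicate 2 (0.74, limma adjusted p = 0.0923). Nor was Tfeb called by the methods' ANOVA or with replicate numbers as a block. It was past 2-fold without SP replicate 3 (1.11, limma adjusted p = 0.0168), PBS replicate 3 (1.02, limma adjusted p = 0.0456) or PBS replicate 4 (1.02, limma adjusted p = 0.0469). Its relatives Tfe3 and Mitf, named after their values were seen, also rose. Tfe3 was 9.65, 9.30, 10.06 and 10.11 in PBS and 10.82, 10.83, 11.14 and 10.71 in SP (difference 1.10, 2.14-fold, limma adjusted p = 0.00212). Mitf was 7.35, 7.03, 7.48 and 7.33 in PBS and 8.48, 8.58, 7.74 and 8.40 in SP (difference 1.002, limma adjusted p = 0.00348). In Tfe3 and Mitf every SP array lay above every PBS array, and both calls held in all alternative fits other than limma treat.

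TFEB binds the CLEAR element, whose E-box core reads TCACGTG. RefSeq promoters of the mouse assembly GRCm38.p6, taken from 250 bases before to 50 bases after a gene's start, were at hand for 32 of the 39 genes, of which 8 were called higher, 9 lower and 15 not called. On either strand the core was found in 3 of the 32, against 4.29% of 27025 genes with a promoter (3.77% of 32851 promoters): Atg14, which was lower, and Atg3 and Atg7, which were not called. No promoter of the 8 genes called higher held these letters in this window. The matches are printed 5′ to 3′ on the strand of the gene, with the core in capitals, to show which genes carry it. The Atg7 window belongs to a start that lies 27969 bases inside the RefSeq bounds of the gene. In Atg3 the core occurred at adjacent places, and the second match overlaps a match on the opposite strand 1 base on.
Atg3, chr16:45158726-45158748, plus strand, 95 bases before the start: tccttttgTCACGTGtcctggga
Atg3, chr16:45158749-45158771, plus strand, 72 bases before the start: gagtcgagTCACGTGaggcctta
Atg7, chr6:114670955-114670977, plus strand, 133 bases before an internal start: attggtggTCACGTGtgcagtaa
Atg14, chr14:47568421-47568443, minus strand, 1 base before the start, core on the opposite strand: caaaatccCACGTGActggccct

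Motifs of pathways that respond to infection were sought in the same windows on both strands. TTCNNNGAA, the STAT motif, was found in 4 of 32 against 9.55% of all genes with a promoter (8.30% of promoters). The core of the interferon-stimulated response element was found in Nbr1 alone, against 3.99% of genes (3.44% of promoters). TGACNNNGC, the core of the antioxidant response element, was found in 3 of 32, namely Atg13, Ulk2 and Map1lc3b, against 14% of genes (12.4% of promoters). TGANTCA, the AP-1 site, was found in none, against 8.97% of genes (7.81% of promoters). The STAT motif lay in both Gabarap, which was higher, and Gabarapl1, which was lower, as well as in Nbr1 and Wipi1. The pair of GABARAP paralogs is printed with the motif in capitals, since the genes moved in opposite directions.
Gabarap, chr11:69991306-69991330, plus strand, 56 bases before the start: aacgtaatTTCCGAGAActgcagaa
Gabarapl1, chr6:129532970-129532994, plus strand, 214 bases before the start: ttagagcaTTCTTTGAAttaacaaa
A match is a run of letters and not a measured binding site.

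Whether paralogs changed unequally was examined for 11 pairs through their log2 difference within each array, a measure that centring of arrays does not alter. The ratio of a pair did not overlap between PBS and SP in 5 pairs. Of all single rows 49% did not overlap, and the share among other pairs of genes was not computed. Map1lc3a relative to Map1lc3b was -2.94 ± 0.32 among PBS arrays and -4.13 ± 0.14 among SP arrays (SD, 4 arrays a group), a shift of -1.19. Atg4a relative to Atg4b shifted by -1.14, Gabarap relative to Gabarapl1 by 0.68, Gabarap relative to Gabarapl2 by 0.71, and Calcoco1 relative to Calcoco2 by -0.99, the last against a row at background. These pairs share genes in part, Gabarap entering 2 of them. Each of the 5 gave an exact two-sided permutation p = 0.0286, the smallest that 70 arrangements allow, and an adjusted p of 0.0629 over the 11 pairs, so that none passed after adjustment.

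The other 6 pairs overlapped. The shift between Ulk1 and Ulk2 was 0.49 (exact permutation p = 0.286), between Atg2a and Atg2b 0.44 (exact permutation p = 0.486), between Wipi1 and Wipi2 -0.34 (exact permutation p = 0.314) and between Atg4c and Atg4d -0.21 (exact permutation p = 0.286). Atg16l1 and Atg16l2 shifted against each other by 0.012 (exact permutation p = 0.914), both having risen. Atg9a relative to Atg9b, a row at background, shifted by 0.14 (exact permutation p = 0.686).

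**Figure D3:**
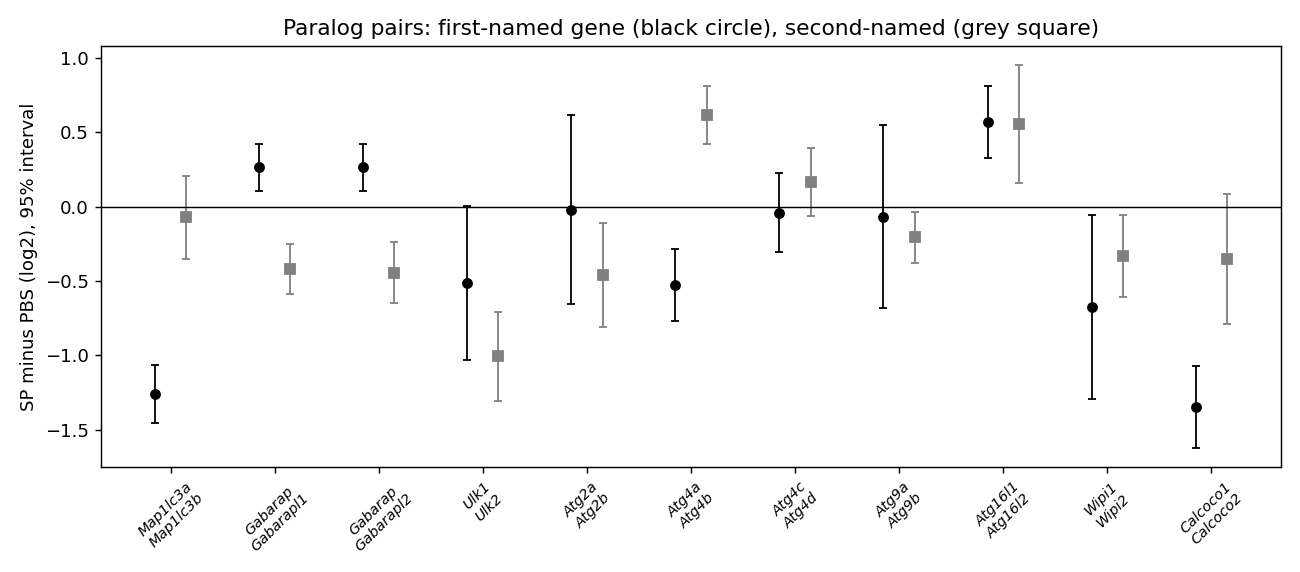
SP minus PBS difference (log2) of both genes of each paralog pair with the 95% confidence interval of the limma fit, the first-named gene as a black circle and the second as a grey square. Map1lc3a (-1.26) and Map1lc3b (-0.07) lie apart, Gabarap (0.26) lies above 0 and Gabarapl1 and Gabarapl2 below it, and Atg4a and Atg4b lie on opposite sides, whereas the intervals of the Atg16l1 pair cover each other.

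Some arrays ranked at an end of their group more often than others. PBS replicate 2 was the lowest PBS array in 18 of the 39 genes (46.2%, and 36.3% of all rows), PBS replicate 3 the highest in 19 (48.7%, and 32.8%), and SP replicate 2 the highest SP array in 21 (53.8%, and 21.8%). SP replicate 3 stood at an end of the SP group in 25 genes, lowest in 14 (35.9%, and 33.9% of all rows) and highest in 11 (28.2%, and 41.1% of all rows). Without both PBS replicate 2 and SP replicate 3, 22 genes were called, 18 of them among the original 20.

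Around this core, 58 of 59 further genes of the pathway had a row, from a list of fusion factors, other receptors, membrane proteins, nutrient-sensing kinases and transcription factors. Of these, 22 were higher, 16 were lower and 20 were not called, and 19, or 32.8%, passed 2-fold (10 higher and 9 lower), against 17.6% of all rows and 31.9% of rows at or above the median level. Centred arrays gave 20 higher and 4 lower past 2-fold. The share called was 65.5%, against the 44.1% of all rows and 60.3% of rows above the median given before, and the median difference was -0.0066. Of the 38 calls, 30 held in all alternative fits other than limma treat.

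The machinery that joins autophagosomes to lysosomes was mostly higher, with 10 of 14 genes called higher and 1 lower and a median difference of 0.81, where 21.5% of all rows and 24.1% of rows at or above the median level were called higher. This is a direction that held under each scaling for Tecpr1 and for the HOPS subunits called higher. Monocyte and macrophage markers, 3 of 5 of them higher, moved the same way, and their part in this was not tested. Tecpr1, a tether that binds ATG5 and PI3P, was 7.71, 7.94, 7.69 and 7.73 in PBS and 9.75, 9.82, 8.69 and 8.90 in SP. All SP arrays were higher, SP replicates 1 and 2 most. The rise was 1.52 (SE 0.26, 2.87-fold, limma adjusted p = 0.00196). Of the 6 subunits of the HOPS complex, which tethers the membranes, 5 were called higher, by 0.78 to 1.21 with limma adjusted p from 8.42e-05 to 0.0336, namely Vps11, Vps16, Vps18, Vps33a and Vps39. The sixth, Vps41, was 9.50, 9.48, 9.38 and 9.38 in PBS and 9.42, 9.44, 9.11 and 9.44 in SP, with a difference of -0.08 (limma adjusted p = 0.469). The HOPS subunits were singled out after their values were seen. The call was lost for Vps18 without PBS replicate 1 (1.13, adjusted p = 0.0641), SP replicate 2 (1.17, adjusted p = 0.0551) or SP replicate 3 (1.13, adjusted p = 0.0526), for Vps39 without SP replicate 1 (0.70, adjusted p = 0.0569), and for Vps33a without any array other than SP replicate 3 (differences 0.59 to 0.80, adjusted p 0.0599 to 0.0826), all by limma. Neither Vps18 nor Vps33a was called by the methods' ANOVA. Stx17, the SNARE of the autophagosome and the only fusion gene called lower, was also singled out after its values were seen. It was 9.13, 8.93, 9.49 and 9.36 in PBS and 8.65, 8.92, 8.73 and 8.73 in SP (difference -0.47, limma adjusted p = 0.0208), and was not called without PBS replicate 4 (-0.42, limma adjusted p = 0.0583), without SP replicate 1 (-0.43, limma adjusted p = 0.0582) or with centred arrays (-0.19, limma adjusted p = 0.301).

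Among genes of nucleation and membrane supply, 4 of 9 were higher (44.4%) and 2 lower (22.2%). For rows at or above the median level these shares were 24.1% and 36.2%. Rubcnl encodes Pacer, which promotes autophagosome maturation through the class III kinase. It was 7.62, 7.13, 8.32 and 8.27 in PBS and 9.78, 9.35, 11.40 and 9.55 in SP. SP replicate 3 stood well above the other SP arrays, all of which were above PBS. The rise of 2.18 (SE 0.47, 4.54-fold, limma adjusted p = 0.00641) was the largest of the wider list with all arrays in the fit, and without SP replicate 3 it was 1.72, below the 2.22 of Flcn.

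The nutrient and energy kinases and their regulators had 2 of 15 genes higher and 6 lower with a median difference of -0.37, against 24.1% higher and 36.2% lower among rows at or above the median level. With centred arrays 4 were higher and 5 lower and the median was -0.09. Ciliated, club, alveolar and endothelial markers were lower in SP as well, and their part in these falls was not tested. Prkaa2, a catalytic subunit of the energy sensor AMPK, was 8.36, 8.75, 8.04 and 8.20 in PBS and 5.48, 6.31, 5.45 and 6.73 in SP. Every SP array was lower by more than 1 unit, and PBS replicate 2 was the highest. It fell by 2.34 on the log2 scale (SE 0.30, 5.07-fold, limma adjusted p = 0.000477). Sesn1, a stress-induced inhibitor of mTOR complex 1, was 8.49, 8.45, 8.10 and 7.90 in PBS and 7.02, 7.25, 6.18 and 6.94 in SP, lower in every SP array, and fell by 1.39 (SE 0.24, 2.62-fold, limma adjusted p = 0.00205). Flcn, which encodes folliculin, a regulator of the Rag GTPases through which mTOR complex 1 restrains TFEB and TFE3, was 8.55, 8.42, 8.82 and 8.56 in PBS and 10.96, 11.07, 10.27 and 10.39 in SP. The groups lay more than 1 unit apart at their closest. The rise was 2.08 (SE 0.19, 4.24-fold, limma adjusted p = 8.96e-05).

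**Figure D4:**
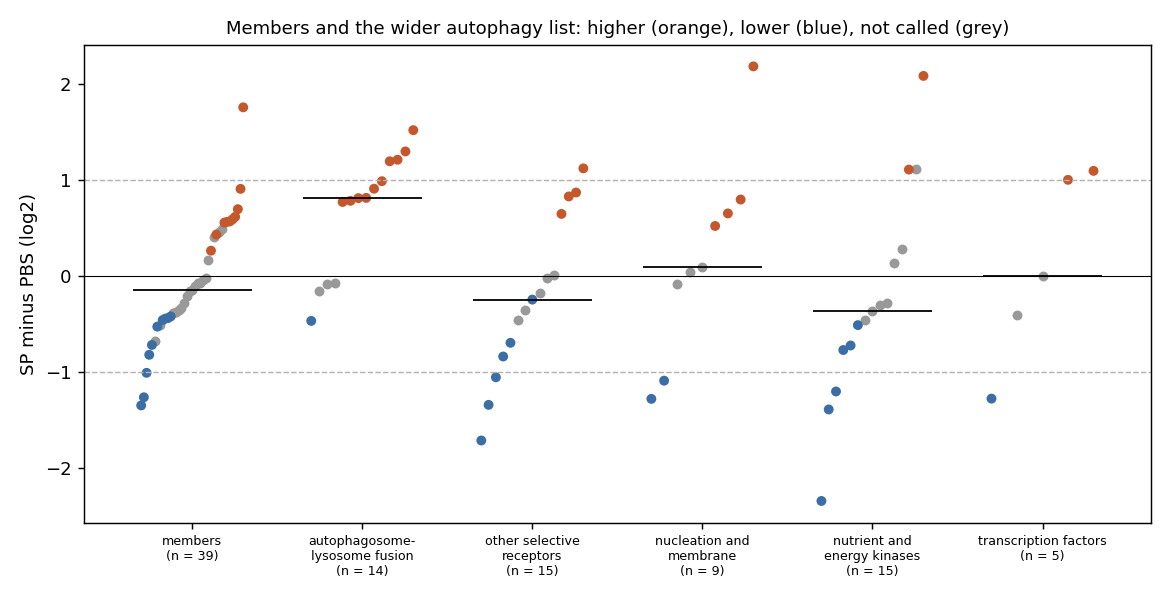
SP minus PBS difference (log2) of the 39 autophagy genes and of the further pathway genes by role, 1 point per gene, orange where called higher, blue where called lower and grey where not called by limma, with black bars at the medians and dashed lines at 2-fold. Fusion genes lie mostly above 0 (median 0.81), and nutrient and energy genes hold both Flcn (2.08) and the lowest point, Prkaa2 (-2.34). Centring arrays on their median would move every point up by 0.28.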

How the data were processed

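Messenger RNA of lung neutrophils was measured in 4 PBS and 4 SP samples, 1 Affymetrix Mouse Gene 1.1 ST array each, grouped by sample title. Per the study's methods, the authors made log2 values by robust multi-array averaging, with background correction, GC and sequence adjustment, quantile normalization and median polish over custom probe-to-gene mappings. Processing notes name Affymetrix Expression Console, RMA and Partek, and a genome build is not given in the sources used here. The deposited log2 values are relative within an array, so a change of total RNA per cell cannot be read from them. All 8 value columns were used.

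Row identifiers were matched without versions to RefSeq genes of GRCm38.p6, which named 19915 of 24625 rows (80.9%). SP and PBS were compared over all rows by limma (3.58.1, R 4.3.3; lmFit and eBayes, no covariates, two-sided, Benjamini-Hochberg, adjusted p of at most 0.05, with at least 2-fold as a further threshold). Confidence intervals are those of the fit at 95%. Paralog ratios were compared by an exact permutation test over samples in Python 3.11.15, and figures were drawn with matplotlib 3.10.9. Limma was first tested on simulated data. The number of arrays limits the precision.

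The genes, lists, pairs and motifs were chosen with earlier results of these data known. Of the further pathway genes, the 3 largest rises and 3 largest falls among called genes were named by rule, and others are marked as chosen after their values were seen. Further pathway genes that are not named are counted in their list. As alternatives, the comparison was repeated with the methods' t-test (one-way ANOVA), with array weights, with replicate numbers as a block, with a robust prior and intensity trend, centring arrays on their median, a further quantile normalization, omission of dim rows (a mean below the median row), 1 row per symbol, limma treat against 1 log2 unit, omission of each array and, added after seeing the data, omission of PBS replicate 2 and SP replicate 3 together.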

Additional observations from a re-analysis of the deposited data

Results flagged for a closer look

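Within a group of 4 arrays, 1 array stood far from the others by Dixon's ratio at its 95% critical value in 5 of 78 gene and group combinations, and chance alone gives about 1 in 20. In SP replicate 3, Atg2a was 10.21 with the other SP arrays at 9.60 to 9.66, Atg2b was 7.52 with the others at 8.03 to 8.12, Atg14 was 6.32 with the others at 6.95 to 7.01, and Becn1 was 10.48 with the others at 10.15 to 10.19. In SP replicate 4, Atg4d was 8.32 with the others at 8.52 to 8.53. Of the 5, 4 fell on SP replicate 3, which also had the lowest array weight, 0.197. Leaving it out kept the call of Atg14 and of Atg2b, and Becn1 was then not called (0.35, limma adjusted p = 0.0943).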

How the results depend on the processing

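Of the 20 calls, 11 held under all 17 alternatives, 9 were lost in at least 1, and 13 of the 19 other genes were called in at least 1. Limma treat is not counted among these 17. No called gene changed direction, and 8 uncalled ones did. With centred arrays Nbr1 was 0.18, Map1lc3b 0.21, Atg2a 0.26, Atg4c 0.24, Atg9a 0.21, Atg9b 0.074, Atg10 0.14 and Rb1cc1 0.12. With array weights Nbr1 was 0.0060, Atg4c 0.11 and Atg10 0.069, and with a further quantile normalization Atg4c was 0.29 and Atg10 0.21. Without PBS replicate 2 and SP replicate 3 together, Atg4c was 0.073, Atg10 0.13, Atg2a -0.41 and Atg9a -0.46. Leave-one-out ranges that crossed 0 were -0.26 to 0.13 for Atg2a, -0.13 to 0.045 for Atg4c, -0.29 to 0.059 for Atg9a and -0.31 to 0.11 for Atg10. Over omission of single arrays, 6 to 10 of the 39 genes were called higher and 9 to 13 lower, with 1 to 2 and 2 to 3 past 2-fold. Their counts became 5 lower with centred arrays, and past 2-fold 2 higher and 1 lower with centred arrays, 2 higher with a further quantile normalization and 0 in either direction by limma treat. Among the 58 further pathway genes centred arrays gave 20 higher and 4 lower past 2-fold, and omission of single arrays 20 to 22 higher and 14 to 20 lower, with 7 to 12 and 8 to 9 past 2-fold. Among paralog pairs, 5 to 6 did not overlap. By the methods' t-test 17 of the 39 genes were called, 16 of them shared.

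No pairing over all 4 replicate numbers was seen. The correlation of deviations between samples of the same number was 0.016, 0.030, 0.35 and -0.27, and only number 3 correlated best with its own. With 4 arrays a group these values cannot tell whether samples of some numbers shared a day. With the replicate number as a block, 8 of the 39 genes were higher and 13 lower, with 18 of the 20 calls kept, and 22 and 17 of the further genes. The smallest p of the paired sign-flip test of the paralog ratios was 0.125. That is the lowest that 4 pairs allow, so this test could call no pair. Precision is set by 4 arrays a group, and differences of rows near the Y-linked level, such as Calcoco2 and Atg9b, are not taken as expression.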

Other observations

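Among selective receptors outside the core set, 4 of 15 were higher (26.7%, and 24.1% of rows at or above the median level) and 6 lower (40%, and 36.2% of such rows). Ccpg1, a receptor for turnover of the endoplasmic reticulum, was 11.42, 11.15, 11.93 and 11.89 in PBS and 9.68, 9.96, 10.03 and 9.87 in SP. All SP arrays were lower by more than 1 unit, and it fell by 1.71 on the log2 scale (SE 0.18, 3.28-fold, limma adjusted p = 0.000175). Named after their values were seen, Tollip rose by 1.12 (limma adjusted p = 6.69e-05), Wdfy3 by 0.87 (limma adjusted p = 0.000409), Tax1bp1 by 0.83 (limma adjusted p = 0.00102) and Retreg1, a receptor of the endoplasmic reticulum, by 0.65 (limma adjusted p = 0.0147), whereas Tex264, a further receptor of the endoplasmic reticulum, fell by 1.34 (limma adjusted p = 0.000567) and Pink1, which marks damaged mitochondria, by 1.06 (limma adjusted p = 0.000279) on the log2 scale. The calls of these 7 genes held in all alternative fits other than limma treat. The subunits of the tuberous sclerosis complex, which inhibits mTOR complex 1, went opposite ways and were also singled out afterwards. Tsc1 was 8.15, 8.44, 8.01 and 8.0005 in PBS and 9.43, 9.45, 9.16 and 8.996 in SP (difference 1.11, limma adjusted p = 0.000413), and Tsc2 was 10.14, 10.42, 9.79 and 9.81 in PBS and 8.79, 8.93, 8.51 and 9.13 in SP (difference -1.20, limma adjusted p = 0.000947). In neither did the groups overlap, and both calls held in all alternative fits other than limma treat.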
